A study of Homo sapiens with 12 samples.

Results

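The miR-183, miR-96 and miR-182 cluster is a group of 3 microRNAs made from hairpins that lie close together on chromosome 7. It was followed here through its main strands, hsa-miR-183-5p, hsa-miR-96-5p and hsa-miR-182-5p (written below without the species prefix), in K562 cells, a human erythroleukaemia line with erythroid and megakaryocytic features. The 3 strands were chosen by name and because both deposited tables list them, so their presence after the authors' filter on low values is not a result. They are 3 of the 952 microRNA strands listed in either table and of the 753 listed in both. All 3 were found in both tables, and none was left out. Small-RNA sequencing covered 12 libraries in 4 groups of 3. The groups were K562 cells given a guide to CYRANO, a long non-coding RNA (sgCYRANO), K562 cells given the guide sgNT, read here as non-targeting (sgNT), K562 cells of genotype ZSWIM8-/- that received no guide (ZSWIM8 KO), and wild-type K562 cells that received no guide (WT). ZSWIM8 selects substrates for a Cullin-RING type of ubiquitin ligase, and CYRANO carries an extensively paired site that brings about decay of miR-7. Each line was sampled in what the depositors call biological triplicate, and the sources used here do not say whether the ZSWIM8 KO line was 1 clone.

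The cluster is transcribed as 1 primary RNA, from which Drosha and Dicer release the hairpins and then the mature strands. Of the 2 arms of a hairpin, usually 1 is kept in Argonaute and guides it to target RNAs through its seed, bases 2 to 8. The cluster is best known from sensory cells such as hair cells and photoreceptors, where it is among the most abundant microRNAs, and changes in the seed of miR-96 cause hearing loss in humans and mice. It is also raised in many carcinomas, and miR-96, miR-182 and miR-183 are known to repress FOXO1, a transcription factor that restrains proliferation.

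The hairpins lie on the - strand of chromosome 7 in GRCh38.p14, in the order of transcription MIR183 (chr7:129774905-129775014), MIR96 (chr7:129774692-129774769) and MIR182 (chr7:129770383-129770492). MIR183 and MIR96 are 135 bases apart, MIR96 and MIR182 are 4199 bases apart, and the whole cluster spans 4632 bases. In the annotation it sits between genes, 13306 bases beyond the end of NRF1 and before UBE2H, both protein-coding. The deposited tables give names only, without coordinates, and the authors' build was hg19, so these positions come from RefSeq alone. The mature sequences, from RefSeq, are shown because the strands that changed have nearly the same seed. They run 5′ to 3′ with the seed in capitals.
miR-183-5p: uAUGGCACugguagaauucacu
miR-96-5p: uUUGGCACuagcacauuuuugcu
miR-182-5p: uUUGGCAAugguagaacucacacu
miR-1271-5p: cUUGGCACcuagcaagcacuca

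The seed of miR-96-5p is shared exactly by miR-1271-5p, whose gene MIR1271 lies on chromosome 5, and by no other of the 2370 mature strands in the sequence table. The seeds of miR-183-5p and miR-182-5p are each found in 1 mature strand. Counted from 1 at the 5′ end, miR-182-5p and miR-183-5p have the same base at 18 of 22 positions, and going from miR-182-5p to miR-183-5p the differences are U2A, A8C, C17U and A22U. The first 2 of these fall in the seed. miR-182-5p and miR-96-5p share 6 of 7 seed bases, differing there by A8C, but only 12 of 23 positions in all. The sources used here do not state how reads matching several strands were counted.

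The values are the authors' own edgeR comparisons. They cover 837 strands for sgCYRANO against sgNT, and the table of ZSWIM8 KO against WT has 868. Values of single libraries were not used here, so the spread between the 3 libraries of a group cannot be shown directly. Levels are group means in CPM, reads scaled to a library total of 1000000, recovered from the deposited mean log2 CPM and log2 fold change, and the error after ± is the standard error of a log2 fold change implied by the deposited p. No header states the direction of the fold changes. sgCYRANO and ZSWIM8 KO, each named second in its table, were read as numerators, and if that is wrong every pair of values below changes places. With this reading miR-7-5p, the strand that CYRANO is known to remove, was higher in sgCYRANO (34884 CPM) than in sgNT (6102 CPM), and higher in ZSWIM8 KO (23494 CPM) than in WT (4617 CPM). Reads per library, read from the smallest steps of the means, came to 1670000 to 1850000 in sgCYRANO, 1550000 to 2300000 in sgNT, 2090000 to 2490000 in ZSWIM8 KO and 860000 to 1850000 in WT. The 5 erythroid strands fixed as markers of K562 (miR-451a, both miR-144 strands and both miR-486 strands) were all listed. They summed to 13697 CPM in sgCYRANO, 13291 in sgNT, 15642 in ZSWIM8 KO and 16251 in WT. Most of each sum was miR-486-5p, with 13387 CPM in ZSWIM8 KO and 14449 CPM in WT. In ZSWIM8 KO against WT the median log2 fold change of the 5 was 0.45, against 0.08 over all strands. miR-144-3p had 239 CPM in ZSWIM8 KO and 119 CPM in WT, miR-451a 956 CPM in ZSWIM8 KO and 574 CPM in WT, and miR-144-5p 492 CPM in ZSWIM8 KO and 360 CPM in WT, and none of these passed. Of the 5, 1 passed an adjusted p of 0.05, miR-486-3p, which fell by 0.40 on the log2 scale, where 9.91% of all strands passed in either direction. In sgCYRANO against sgNT 0 of 5 passed, where 0.119% of all strands did. Of the sensory markers miR-204-5p was listed, at 9.39 CPM in sgCYRANO, 10.3 in sgNT, 11.1 in ZSWIM8 KO and 4.95 in WT, and miR-211-5p was not. Of the other cell types' markers, the 2 listed epithelial strands of 3 summed to 72.4, 70.2, 89.3 and 94.7 CPM in the same order. The hepatic miR-122-5p and the muscle miR-1-3p stayed at 2.08 CPM or less, and the only strands fixed as neural (miR-124-3p) and lymphoid (miR-150-5p) markers were in neither table. With 1 strand each, these lists say little of such cells, and miR-9-5p and miR-142-3p, which neural and blood cells are known to express, were listed in both tables. Whether any of these markers bears on the results below was not tested.

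In ZSWIM8 KO cells all 3 strands of the cluster were lower than in WT cells, by 40.4% to 51.8%. The group mean of hsa-miR-182-5p was 1239 CPM in ZSWIM8 KO cells, against 2546 CPM in WT cells. In the authors' deposited table this was a log2 fold change of -1.04 ± 0.12, a level 51.3% lower (edgeR F test with Benjamini-Hochberg adjustment, adjusted p = 8.6e-16). The scarcest of the main strands, hsa-miR-96-5p, had 310 CPM in ZSWIM8 KO cells, against 643 CPM in WT cells. The authors' deposited table gave it -1.05 ± 0.14, or 51.8% lower (adjusted p = 4.08e-11). The mean of hsa-miR-183-5p, made from the hairpin at the 5′ end of the cluster, was 1188 CPM in ZSWIM8 KO cells, against 1993 CPM in WT cells. In the authors' deposited table this was -0.75 ± 0.11, or 40.4% lower (adjusted p = 5.16e-09). So 3 of 3 strands passed an adjusted p of 0.05 and fell, where 45 of the 868 strands tested, 5.18%, passed and were lower. Another 41, 4.72%, were higher, which makes 86 strands or 9.91% in either direction. These strands were taken up with that outcome already known, so the count describes the cluster and is not independent support for it.

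Those p-values rest on more degrees of freedom than the libraries alone give, as in fits that share variance between microRNAs. Together F and p imply 164 denominator degrees of freedom for each of the 3 strands, while 6 libraries in 2 groups leave 4. Read with 4, the deposited F gave adjusted p-values of 0.0893 for miR-182-5p and 0.150 for both miR-96-5p and miR-183-5p, so the calls depend on the added degrees of freedom. The F itself was kept as deposited and may already hold shared variance. This reading is therefore not the test that the 6 libraries alone would give, which could not be run.

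The errors of the cluster strands were close to those of strands of like abundance, at 0.982 times the median of 51 such strands for miR-182-5p, 0.971 for miR-183-5p and 0.959 for miR-96-5p, taken from the deposited F. With 164 implied degrees of freedom, these errors rest on more than the strands' own libraries. A ratio near 1 therefore does not show that the libraries agreed. Among the 5 erythroid markers in the same comparison the ratio was 4.25 for miR-451a, 2.69 for miR-144-3p, 2.61 for miR-144-5p, 2.02 for miR-486-5p and 0.995 for miR-486-3p. In bulk RNA, a change in every cell and a loss of some cells with a high level cannot be told apart.

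**Figure D1:**
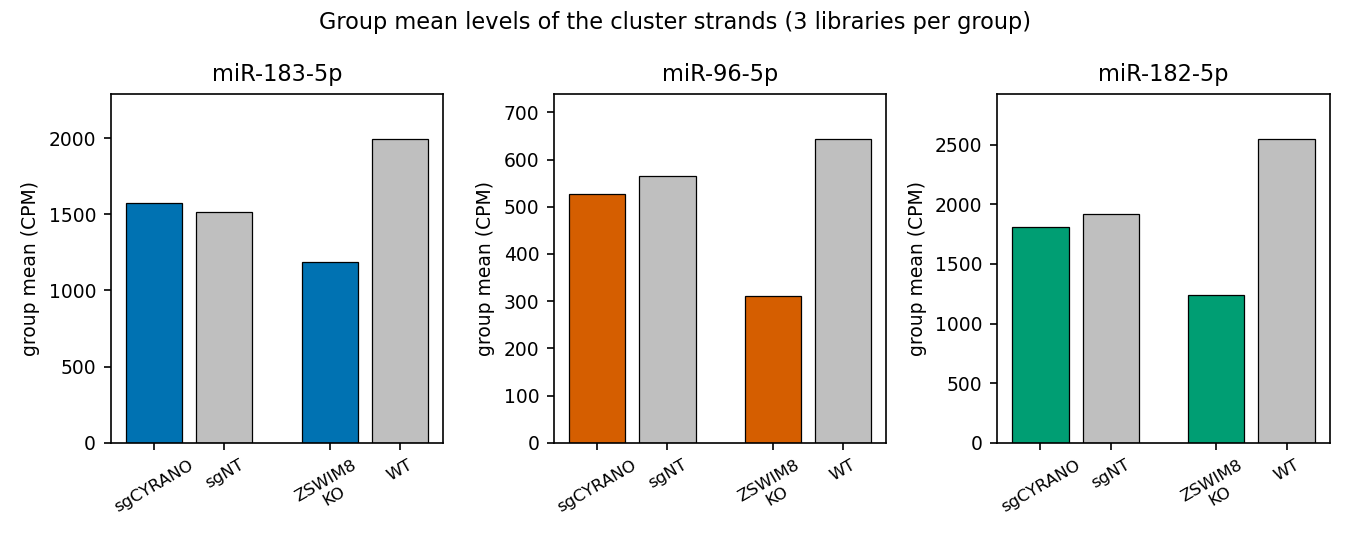
Group mean levels in CPM (linear axis from 0) of miR-183-5p, miR-96-5p and miR-182-5p, with sgCYRANO beside sgNT and ZSWIM8 KO beside WT. Bars are means of 3 libraries recovered from the deposited tables, without error bars because values of single libraries were not used. The ZSWIM8 KO bar is the lowest of the 4 for every strand and the WT bar the highest.

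In sgCYRANO cells the same 3 strands stood close to their sgNT levels. miR-182-5p had a mean of 1811 CPM in sgCYRANO cells and 1919 CPM in sgNT cells, and the authors' deposited table gave -0.08 ± 0.09 on the log2 scale (adjusted p = 0.980). For miR-96-5p the means were 527 CPM in sgCYRANO cells and 565 CPM in sgNT cells, and the change in the authors' deposited table was -0.10 ± 0.11 (adjusted p = 0.980). miR-183-5p had 1574 CPM in sgCYRANO cells and 1513 CPM in sgNT cells, and a change of 0.06 ± 0.10 in the authors' deposited table (adjusted p = 0.984). Thus 0 of 3 strands passed, where 1 of the 837 strands tested, 0.119%, did (edgeR), and 0 of the 3 had an unadjusted p under 0.05, against 49 of the 837. The 95% intervals of the 3 fold changes ran from -0.31 to 0.24 on the log2 scale, so changes of the size seen in ZSWIM8 KO cells lay outside them.

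The fall in ZSWIM8 KO cells was tested against the change in sgCYRANO cells, since a call in 1 comparison and not in the other does not show a difference. The log2 fold change of ZSWIM8 KO against WT minus that of sgCYRANO against sgNT was -0.96 ± 0.15 for miR-182-5p (normal test, adjusted p = 4.54e-08 over 753 strands). It was -0.95 ± 0.18 for miR-96-5p (adjusted p = 6.78e-06 over all strands, edgeR-derived errors) and -0.80 ± 0.15 for miR-183-5p (adjusted p = 5.49e-06). All 3 passed, where 22 of the 753 strands, 2.92%, passed in that direction and 50, 6.64%, in either. The strands were taken up with their fall in ZSWIM8 KO cells known, and that fall makes up most of each difference. This count therefore also describes the cluster and is not independent support. The comparisons share no library, but both sets of errors rest on added degrees of freedom. The pairs also differ in that sgCYRANO and sgNT cells carry guides while ZSWIM8 KO and WT cells do not.

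**Figure D2:**
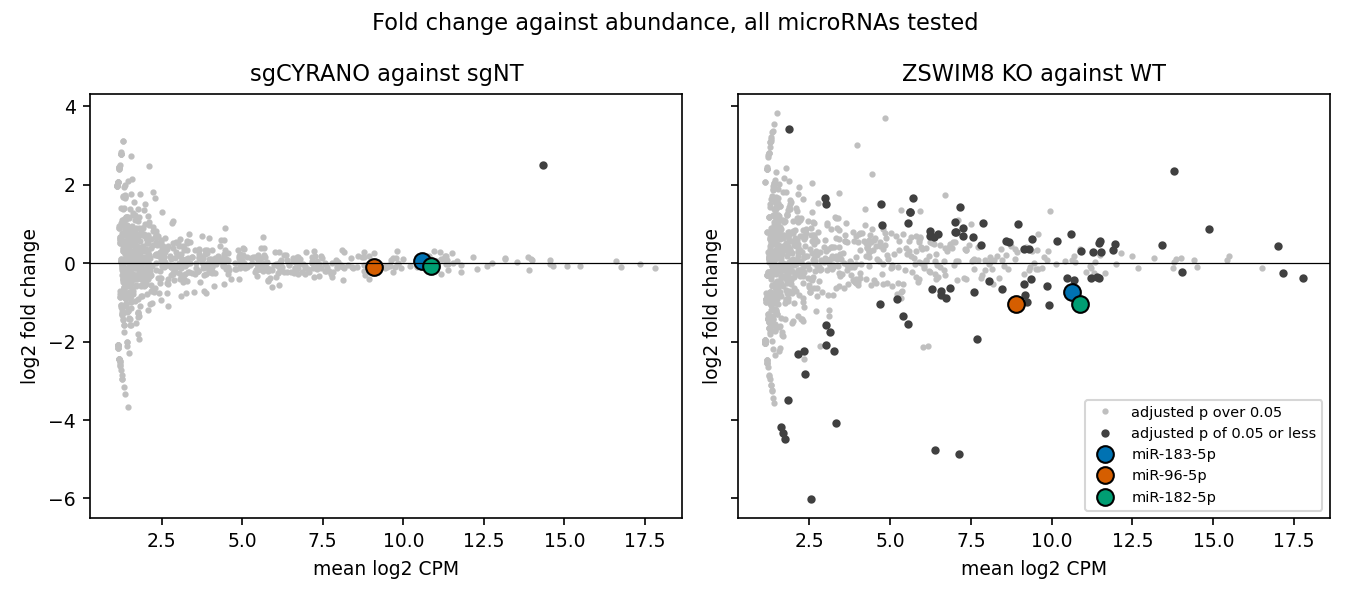
Log2 fold change (vertical axis) against mean log2 CPM (horizontal axis) for all strands tested, 837 in the panel of sgCYRANO against sgNT and 868 in that of ZSWIM8 KO against WT. Dark points have an adjusted p of 0.05 or less, and coloured circles mark the 3 cluster strands. The circles lie between -0.10 and 0.06 in the sgCYRANO panel and between -1.05 and -0.75 in the ZSWIM8 KO panel.

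Taken as a sum, the cluster held 2737 CPM in ZSWIM8 KO cells, against 5183 CPM in WT cells, which is 0.274% and 0.518% of the reads assigned to microRNAs. The ratio is 0.528, or -0.92 on the log2 scale. In sgCYRANO cells the sum was 3913 CPM, against 3997 CPM in sgNT cells, a ratio of 0.979. Across the 4 groups the order of the sum was ZSWIM8 KO, sgCYRANO, sgNT and WT, and each strand followed this order except miR-183-5p, which was higher in sgCYRANO than in sgNT. The tables were normalized separately, and the distance between sgNT and WT was not tested. miR-182-5p was the most abundant strand in every group, miR-183-5p came next and miR-96-5p was the scarcest. Reads per strand also depend on how well each strand is ligated, so these levels do not give molar ratios.

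The proportions within the cluster moved little. miR-182-5p made up 45.3% of the sum in ZSWIM8 KO cells and 49.1% in WT cells, miR-183-5p 43.4% and 38.5% in the same order, and miR-96-5p 11.3% and 12.4%. In sgCYRANO cells the shares were 46.3% for miR-182-5p, 40.2% for miR-183-5p and 13.5% for miR-96-5p, against 48.0%, 37.9% and 14.1% in sgNT cells. The level of miR-182-5p was 1.04 times that of miR-183-5p in ZSWIM8 KO cells, against 1.28 times in WT cells. Of the 6 pairwise differences between fold changes, 3 in each comparison, 0 passed after adjustment (normal test on the edgeR-derived errors), and 0 had an unadjusted p under 0.05. The test treated the strands of a pair as independent, although they come from the same libraries. Its errors may therefore be too large, and a real difference could have been missed. In ZSWIM8 KO against WT, miR-183-5p minus miR-96-5p was 0.31 ± 0.18 on the log2 scale, with a 95% interval of -0.06 to 0.67, and miR-182-5p minus miR-183-5p was -0.29 ± 0.17, with an interval of -0.62 to 0.03. Both had an adjusted p of 0.290 (normal test on the edgeR-derived errors), and neither interval shows that the strands fell equally. The difference between miR-182-5p and miR-96-5p there was 0.01 ± 0.19, with an interval of -0.35 to 0.38.

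The opposite arms of the hairpins, which usually are not kept in Argonaute, were scarce. The sequences of the strands listed, again 5′ to 3′ with bases 2 to 8 in capitals, were as follows.
miR-182-3p: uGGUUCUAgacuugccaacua
miR-183-3p: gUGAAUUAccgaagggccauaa

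The mean of miR-182-3p was 1.87 CPM in ZSWIM8 KO cells, against 4.23 CPM in WT cells. The authors' deposited table gave it -1.13 ± 0.67, with an adjusted p of 0.362, so it did not pass. The log2 fold change of the 5p arm of this hairpin minus that of the 3p arm was 0.09 ± 0.68 (normal test, adjusted p = 0.984 over 188 hairpins whose arms were both listed under 1 name), where 7 of the 188, 3.72%, passed. With an error of that size, a difference between the arms as large as the fall itself could have been missed. In sgCYRANO cells miR-182-3p had 3.03 CPM, against 3.96 CPM in sgNT cells, and its arm difference was 0.29 ± 0.62 (adjusted p = 0.966 over 180 hairpins, edgeR-derived errors), where 0 of the 180 passed.

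miR-183-3p was listed with a mean of 0 in ZSWIM8 KO cells, where 3 reads over the group would be 0.425 CPM, against 0.955 CPM in WT cells. Its adjusted p in the authors' deposited table was 0.297. Read from the steps of the means, the WT value rests on 3 reads in all, the sgCYRANO value of 0.925 CPM on 5 and the sgNT value of 0.650 CPM on 4, so a difference in this arm was not detectable at this depth. miR-96-3p was in neither table. In WT cells the main arm was 601 times as abundant as the other for the miR-182 hairpin and 2088 times for the miR-183 hairpin, and in ZSWIM8 KO cells the ratio for miR-182 was 662.

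miR-1271-5p, which has the seed of miR-96-5p but comes from another chromosome, was present at trace level. It had a mean of 0.268 CPM in ZSWIM8 KO cells, under the 0.425 CPM that 3 reads over the group are worth, against 1.18 CPM in WT cells, from 4 reads. Its adjusted p in the authors' deposited table was 0.510. In sgCYRANO cells it had 0.568 CPM, from 3 reads, against 1.14 CPM in sgNT cells, from 6, with an adjusted p of 0.980 in the same source, the authors' deposited table. Among the listed strands nearly all reads with this exact seed therefore came from miR-96-5p in each group.

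Other microRNAs known to repress FOXO1 were set beside the cluster. Of the 9 strands on this list, 6 were in the table of ZSWIM8 KO against WT, and 3 of them, the cluster strands, fell while 3 did not pass. The cluster strands were taken up with their fall known. Over all strands 9.91% passed and 5.18% passed and were lower, so the other 3 not passing is near the background. miR-186-5p had 3079 CPM in ZSWIM8 KO cells, against 2645 CPM in WT cells, or 0.22 ± 0.10 in the authors' deposited table (adjusted p = 0.163). miR-9-5p had 1396 CPM in ZSWIM8 KO cells, against 558 CPM in WT cells, or 1.32 ± 0.54 in the authors' deposited table (adjusted p = 0.106). Its error taken from the deposited F, which is not the one after ±, was 2.80 times the median of strands of like abundance. The median log2 fold change was -0.89 over the 6 strands and 0.22 over the 3 outside the cluster, against 0.08 over all 868. Those 3 ran from -1.73 for miR-1271-5p, present at trace level, to 1.32 for miR-9-5p, so their median is the value of miR-186-5p. In sgCYRANO cells 0 of 7 listed strands passed, where 0.119% of all strands did. Their median was 0.06, against 0.01 over all 837. Of the other strands of the list, miR-27a-3p and miR-27b-3p were in neither table. Their absence need not mean a low level, and its reason was not tested. The other arm of 1 of these hairpins, miR-27a-5p, had 272 CPM in ZSWIM8 KO cells and 430 CPM in WT cells. miR-153-3p was listed only for sgCYRANO (0.764 CPM) against sgNT (0.579 CPM).

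MicroRNAs annotated elsewhere in band 7q32 were also set beside the cluster. In ZSWIM8 KO against WT, 6 of the 10 neighbours were in the table and 0 passed, with a median log2 fold change of 0.20. With 9.91% of all strands called there and 0.119% in sgCYRANO against sgNT, 0 of 6 is near the background and is no result about the neighbours. miR-29a-3p, the most abundant of them, had 382 CPM in ZSWIM8 KO cells, against 300 CPM in WT cells, or 0.35 ± 0.14 in the authors' deposited table (adjusted p = 0.106). miR-29b-3p, part of which comes from the same 7q32 transcript, had 25.1 CPM in ZSWIM8 KO cells and 18.3 CPM in WT cells, at 0.45 ± 0.34 in the authors' deposited table, while miR-129-5p had 21.0 CPM in ZSWIM8 KO cells and 30.4 CPM in WT cells, at -0.53 ± 0.33. In sgCYRANO cells likewise 0 of 6 passed, with a median of -0.04.

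**Figure D3:**
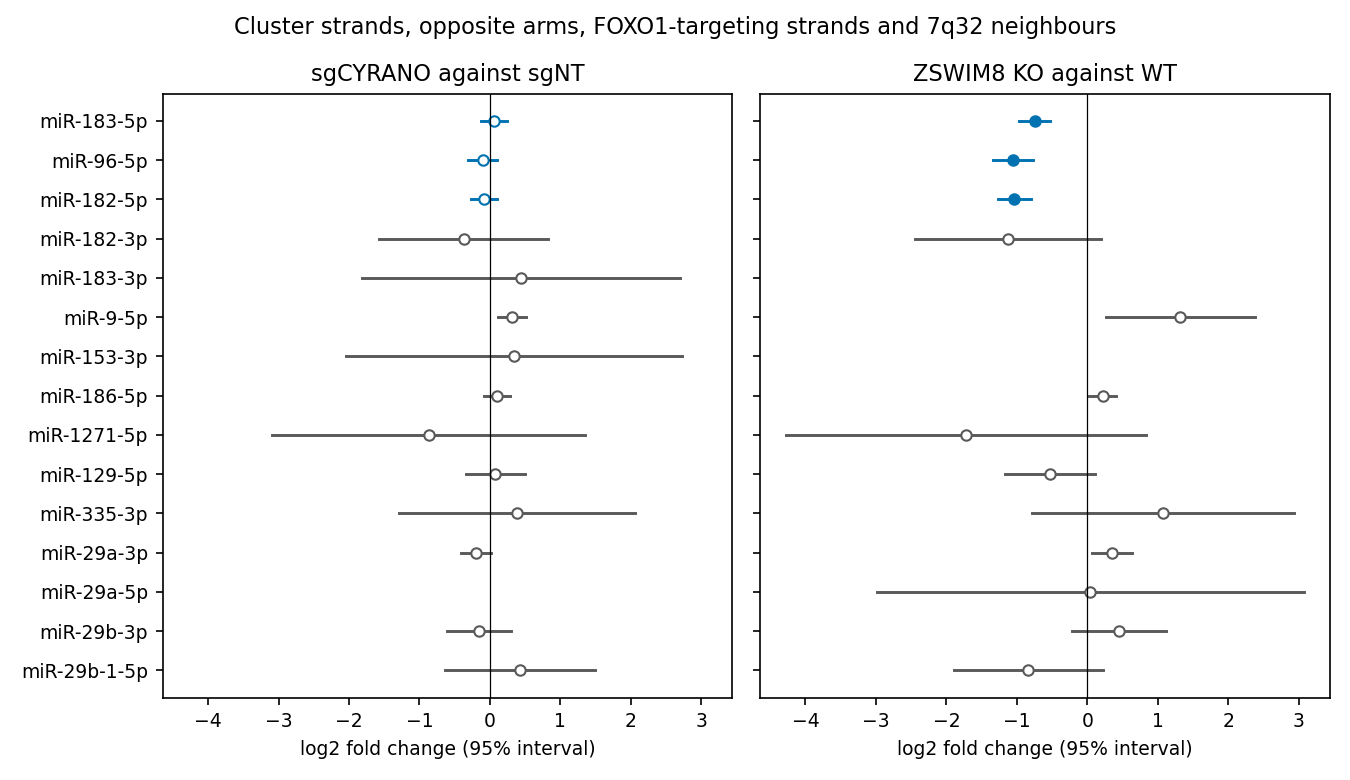
Log2 fold changes with 95% intervals (horizontal axis) for the cluster strands, their opposite arms, the other FOXO1-targeting strands and the 7q32 neighbours, in sgCYRANO against sgNT and in ZSWIM8 KO against WT. Filled circles passed an adjusted p of 0.05, and strands with a group mean of 0 are not drawn. The 3 cluster strands are the filled ones, with intervals that end at or below -0.52, while miR-182-3p and miR-1271-5p have wide intervals that reach above 0.

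The cluster was also set beside other microRNA clusters, defined after the values were seen as strands within 10000 bases on 1 strand of a chromosome. Of each hairpin the more abundant listed arm was taken, and at least 3 such strands had 10 CPM or more. In sgCYRANO against sgNT only the 3p arms of let-7a and miR-18a were listed, and in both comparisons these arms stood for their hairpins. Of 8 such clusters in ZSWIM8 KO against WT, 1 had every strand called and lower, namely miR-183, miR-96 and miR-182, whose fold changes ran from -1.05 to -0.75. The next in order of its median was the cluster of miR-17-5p and miR-19b-3p, with 4 of 6 strands called lower and a range of -0.42 to 0.13. The cluster of miR-450b-5p and miR-503-5p had 3 of 4 strands called higher, with a range of -0.27 to 1.04. In sgCYRANO against sgNT 0 of all 837 strands were called lower, so no cluster could have had every strand called lower there. Strands such as miR-92a-3p and miR-19b-3p are also made from other loci, which the cluster strands described here are not.

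**Figure D4:**
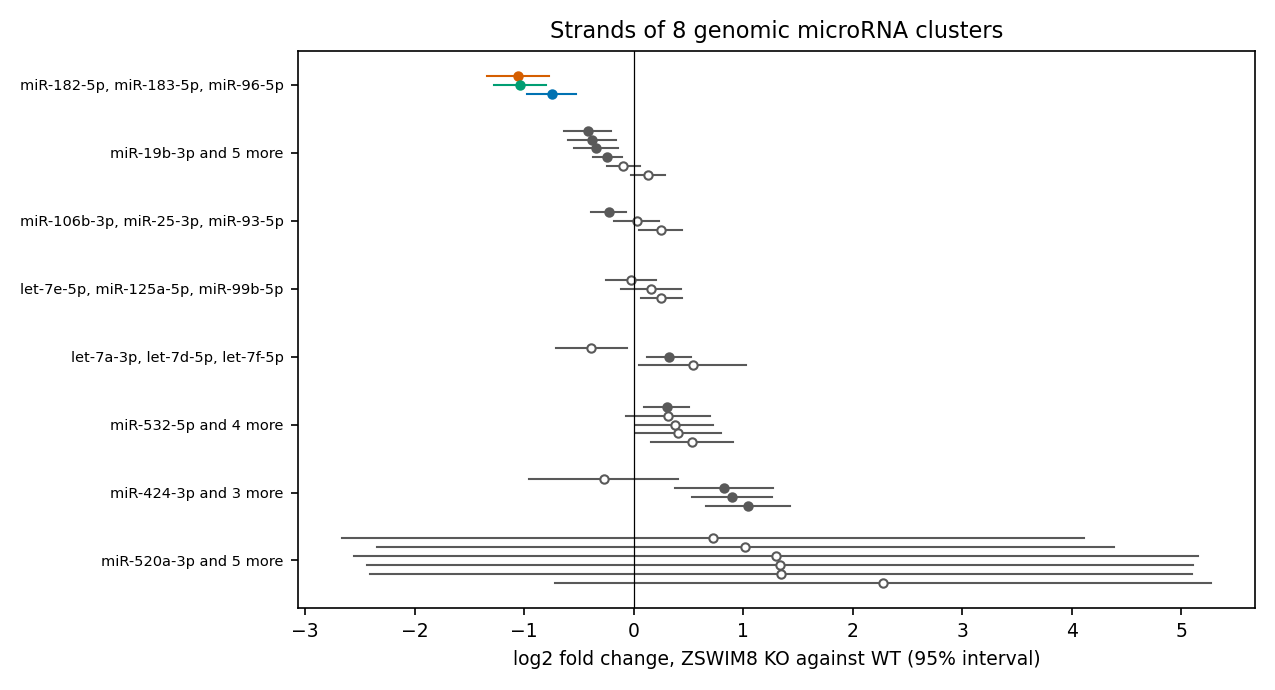
Log2 fold changes in ZSWIM8 KO against WT with 95% intervals (horizontal axis) for the strands of 8 genomic microRNA clusters, 1 row of points per strand, in order of the cluster median. Filled circles passed an adjusted p of 0.05. The 3 coloured points of miR-96-5p, miR-182-5p and miR-183-5p lie at -0.75 or lower, below every other strand drawn.

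Among abundant strands the fall was one of the deepest. In ZSWIM8 KO against WT, 92 strands had a mean of 300 CPM or more, 18 of them were called lower, and 7 were lower by 1.5-fold or more, where 33 of all 868 strands, 3.8%, were. The 3 cluster strands are among these 7, miR-96-5p in place 2, miR-182-5p in place 3 and miR-183-5p in place 6. The first place was held by miR-92a-1-5p, with 621 CPM in ZSWIM8 KO cells, against 1290 CPM in WT cells, and -1.05 ± 0.13 in the authors' deposited table. The places depend on the minimum level. At 100 CPM or more there were 144 strands, of which 24 were called lower, 12 of them by 1.5-fold or more. Among these 144, miR-96-5p held place 4, miR-182-5p place 5 and miR-183-5p place 9. Strands ranked next to the cluster strands in abundance were not called lower. miR-452-5p, 1 rank above miR-182-5p, stood at 0.37 ± 0.55, and miR-192-5p, 1 rank below, at 0.30 ± 0.11, both from the authors' deposited table. miR-484 and miR-425-5p, on either side of miR-183-5p, stood at 0.19 ± 0.11 and 0.09 ± 0.11, and miR-194-5p and miR-140-3p, on either side of miR-96-5p, at 0.28 ± 0.13 and 0.10 ± 0.13, again from the authors' deposited table. None of these 6 passed. With 5.18% of all 868 strands called lower and 9.91% in either direction, that is near the background and is no result about these neighbours.

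In sgCYRANO against sgNT the neighbours in abundance were miR-452-5p and miR-92a-1-5p for miR-182-5p, miR-18a-3p and miR-484 for miR-183-5p, and miR-744-5p and miR-197-3p for miR-96-5p. Their log2 fold changes ran from -0.15 to 0.26 in the authors' deposited table, and none passed, where 0.119% of all strands did. By mean log2 CPM miR-182-5p ranked 40 of 837 there and 41 of 868 in the other table, miR-183-5p 48 and 46, and miR-96-5p 70 and 79.

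The strands most like the cluster in both comparisons were picked by distance. For each of the 291 other strands at 10 CPM or more in both tables, the distance was taken from its pair of log2 fold changes to the median pair of the cluster strands, -0.08 for sgCYRANO and -1.04 for ZSWIM8 KO. The measure thus rests on 2 comparisons between 4 group means. The nearest was miR-25-5p, the scarcer arm of the miR-25 hairpin, at a distance of 0.06, with 407 CPM in ZSWIM8 KO cells, against 805 CPM in WT cells. Then came miR-581 at 0.13, miR-184 and miR-1908-5p at 0.21 each and miR-202-5p at 0.23. In ZSWIM8 KO against WT 4 of these 5 passed in the authors' deposited table, and miR-202-5p, with -0.89 ± 0.33 and an adjusted p of 0.0675, did not. Over all 868 strands 9.91% passed, but these 5 were picked by their fold changes in this same comparison. That count is therefore no result about them. miR-183-5p lay farther from the median pair than these 5, at 0.32, while miR-96-5p lay at 0.02.

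**Figure D5:**
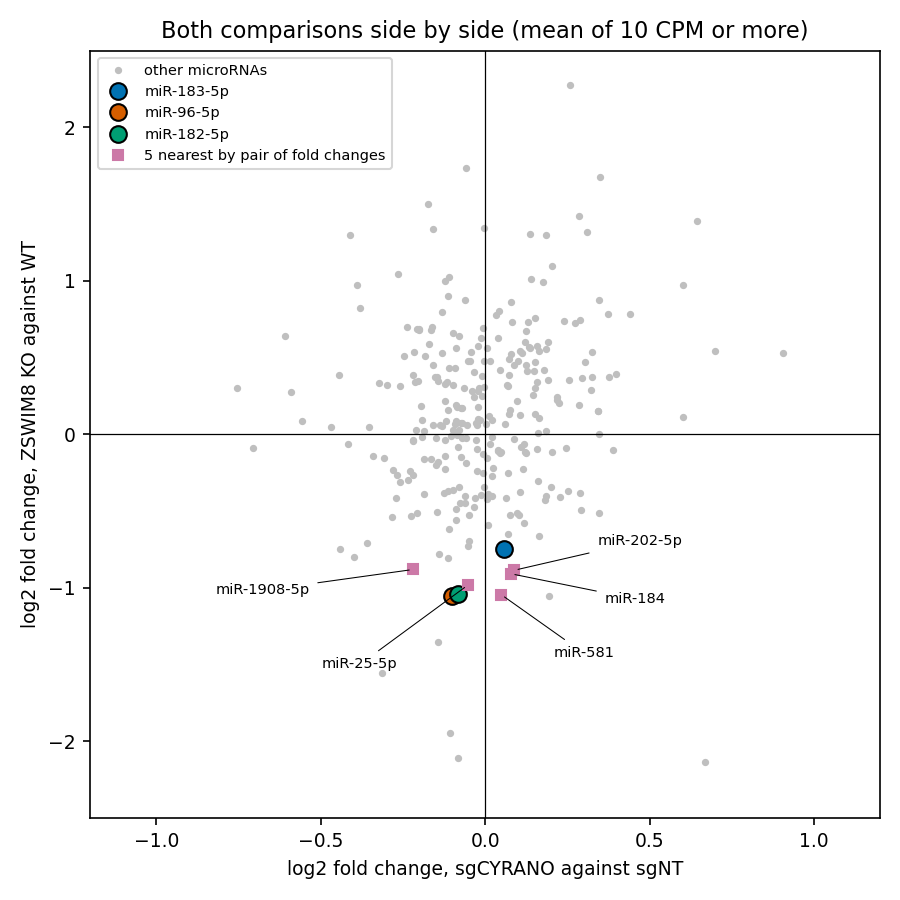
Log2 fold change of ZSWIM8 KO against WT (vertical axis) against that of sgCYRANO against sgNT (horizontal axis) for the 294 strands with a mean of 10 CPM or more in both tables, of which 3 lie outside the axes. Circles mark the cluster strands and squares the 5 nearest strands. The cluster strands lie near 0 on the horizontal axis and between -1.05 and -0.75 on the vertical one.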

How the data were processed

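Small RNA from 12 K562 libraries, 3 per group, was isolated with miRNeasy and made into NEBNext libraries (source: the labels' protocols). Tools named in the submitters' processing notes, with no roles, are edgeR, STAR, featureCounts, FastQC 0.11.2 and bcl2fastq, and the build is hg19. The authors deposited 1 edgeR comparison per table, with a log2 fold change, a mean log2 CPM, an F statistic (a score), a p-value and an adjusted p-value per strand, per the file headers.

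Group mean CPM were solved from both log2 columns, using prior counts of 2 for the mean and 0.125 for the fold change and library totals of 1000000, and summed to 1000000 in all 4 groups. Adjusting the p-values again by Benjamini-Hochberg matched the deposited column to within 1.09e-06. A standard error is the fold change divided by the normal deviate that p gives. Differences between strands, arms and comparisons used a normal test with Benjamini-Hochberg adjustment. Their errors were combined as if independent, although strands and arms of a comparison come from the same libraries. Depth was read from steps of whole reads in low means (tolerance of 0.0015 CPM), which accounted for 222 of 227 low values in sgCYRANO, 220 of 220 in sgNT, 203 of 208 in ZSWIM8 KO and 239 of 241 in WT. Limits of 3 reads cover counting error only. Procedures were tested on simulated data. Python 3.11.15, SciPy 1.17.1 and pandas 2.3.3 were used. The design text calls the samples of a cell line biological triplicates without naming separate cultures, so p-values reach no further than these libraries. As their degrees of freedom exceed what the libraries give, they do not measure the spread between libraries alone. Alternatives were other centrings, filters on low values, the deposited F read with 4 denominator degrees of freedom, Bonferroni adjustment, errors taken from F and sums without 1 strand.

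The members and lists were chosen with earlier results of these data known. Named strands follow a rule: the members, strands of their hairpins or with their seed, the FOXO1 and 7q32 lists, neighbours in abundance, the 5 most alike, miR-7-5p and cell type markers. Other strands named were chosen after their values were seen.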

Additional observations from a re-analysis of the deposited data

How the results depend on the processing

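Of 54 repeats of the results on the cluster under other settings, 49 kept their direction and their side of the threshold, or moved by less than their error. The rest concern ZSWIM8 KO against WT. Reading F with 4 denominator degrees of freedom ended all 3 calls, with log2 fold changes of -0.75 for miR-183-5p (adjusted p = 0.150), -1.05 for miR-96-5p (adjusted p = 0.150) and -1.04 for miR-182-5p (adjusted p = 0.0893). The log2 ratio of the summed CPM was -1.04 without miR-183-5p and -0.82 without miR-182-5p, as the estimated fold changes of the strands are not the same. No pairwise difference between these estimates passed. Strands at 10 CPM or more had a median log2 fold change of 0.13 in ZSWIM8 KO against WT and -0.02 in sgCYRANO against sgNT. Centred on it, miR-182-5p had -1.17, miR-96-5p -1.18 and miR-183-5p -0.88 in ZSWIM8 KO, all still called. The 49 include repeats that could not have changed sides. In sgCYRANO against sgNT no cluster strand was called, and neither Bonferroni adjustment nor 4 degrees of freedom can add a call. The differences between the comparisons were not repeated with 4 degrees of freedom, so whether they would still pass was not tested.

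No paired analysis was possible because the tables hold comparisons, not libraries. For the same reason leaving out replicates, DESeq2 and other size factors were not run. Depth limits the opposite arms and miR-1271-5p, which rest on few reads.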

Other observations

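Besides miR-92a-1-5p, miR-25-5p and the 3 cluster strands, 2 further strands with a mean of 300 CPM or more were called lower by 1.5-fold or more in ZSWIM8 KO cells, and both were named after their values were seen. miR-4521 had 416 CPM in ZSWIM8 KO cells, against 724 CPM in WT cells, a log2 fold change of -0.80 ± 0.13 in the authors' deposited table (edgeR, adjusted p = 1.59e-07). miR-27a-5p had 272 CPM in ZSWIM8 KO cells, against 430 CPM in WT cells, with -0.66 ± 0.15 in the authors' deposited table (edgeR, adjusted p = 0.000212).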
